A study of Mus musculus with 8 samples.

Results

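The 7 genes described here encode CD11c (Itgax), the sister alpha chains CD11a (Itgal), CD11b (Itgam) and CD11d (Itgad), their shared beta-2 partner CD18 (Itgb2), and the ligands ICAM-1 (Icam1) and ICAM-2 (Icam2). They were chosen by symbol, and all 7 of 7 were found among the 22609 genes counted and were among the 10073 genes with enough reads to be tested. The libraries were bulk RNA-seq of liver CD8 T cells from male C57BL/6J mice, 6 weeks old, that had received αCD137 antibody on days 0, 3 and 6, with livers taken on day 8. Every library came from such treated animals, and no untreated group was analysed here. Sorted cells were live, carried CD45, TCRβ and CD8α, and lacked MHCII, NK1.1 and CD4. They were also KLRG1+CD127-, a surface profile of effector T cells, and were parted into cells with (CD11c+) and without (CD11c-) surface CD11c, each with 4 libraries. Whether the 4 libraries of a subset came from separate mice is not stated, so a p-value here sets a difference against the spread of these samples only, and that spread may be technical. The comparison asked whether the transcript of the CD11c chain differed alone between the subsets or together with the partner, sister and ligand transcripts.

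Beta-2 integrins are leukocyte adhesion receptors, each made of 1 alpha chain joined to the shared beta-2 chain, without which the alpha chains do not reach the cell surface stably. CD11a with CD18 forms LFA-1, which binds ICAM-1 and ICAM-2 and carries T cell arrest on vessel walls and the contact with target cells. CD11b with CD18 (Mac-1, complement receptor 3) and CD11c with CD18 (complement receptor 4) are best known on myeloid and dendritic cells, where both bind the complement fragment iC3b, and CD11d with CD18 is best known on macrophages. Activated CD8 T cells can carry CD11b and CD11c as well.

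Libraries held 5090345 to 7093163 gene reads, and 10482 to 12581 genes had at least 1 read. Of uniquely placed reads, 63.1% to 67.1% fell in no counted gene, and the cause was not tested. Detection was lowest in 3 libraries, CD11c+ replicates 1 and 2 and CD11c- replicate 1. Genes of the CD8 T cell itself were high in every library: the 9 counted markers (such as Cd8a, Cd8b1, Cd3d and Cd3e) summed to between 7437 and 8709 CPM in CD11c+ libraries and between 7828 and 8269 CPM in CD11c- libraries. CPM are gene reads scaled to a common library size, with TMM factors that correct for composition.

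Itgax and Itgad carry a stretch of nearly the same sequence, shown because reads of 50 bases taken from inside it can fit both genes equally well. In GRCm38 it lies on the + strand at chr7:128135567-128136107 for Itgax, in exons 11 to 13, and at chr7:128189295-128189834 for Itgad, in exons 12 to 14. These spans include introns, and the 278 bases printed are the joined exons, which are coding in both genes. Capitals mark the 3 bases that differ, and 188 bases between them run without a difference.
Itgax: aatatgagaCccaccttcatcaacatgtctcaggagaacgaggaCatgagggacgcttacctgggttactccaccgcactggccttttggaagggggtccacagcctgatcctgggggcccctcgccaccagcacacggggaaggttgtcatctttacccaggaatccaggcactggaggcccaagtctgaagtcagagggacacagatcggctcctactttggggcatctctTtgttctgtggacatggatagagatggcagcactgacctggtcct
Itgad: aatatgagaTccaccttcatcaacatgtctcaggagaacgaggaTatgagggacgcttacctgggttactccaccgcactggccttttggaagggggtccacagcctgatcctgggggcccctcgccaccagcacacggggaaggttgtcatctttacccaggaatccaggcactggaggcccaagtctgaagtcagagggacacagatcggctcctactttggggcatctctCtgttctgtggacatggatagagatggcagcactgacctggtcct
Of the 3997 windows of 50 bases along the Itgax transcript, 384 (9.61%) were identical to a window of Itgad and 717 (17.94%) matched with at most 2 mismatches. For Itgad the shares were 9.47% and 17.68% of 4056 windows. No 50-base window was shared, at up to 2 mismatches, between any other pair of the 4 alpha chains. Itgax, Itgal, Itgb2 and Icam2 shared no exon position with another gene, whereas parts of Itgam, Itgad and Icam1 overlap other genes of the GRCm38 annotation.

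The 4 alpha chain genes lie on chromosome 7, with Itgam, Itgax and Itgad next to each other and 35 protein-coding genes between Itgal and Itgam, while Itgb2 is on chromosome 10, Icam1 on chromosome 9 and Icam2 on chromosome 11. The bases just before the annotated starts of the neighbours Itgam and Itgax are shown because, of these genes side by side on 1 strand, Itgax passed the test below and Itgam did not. RefSeq (GRCm38.p6) held a promoter entry for 3 of the 7 members (Itgax, Itgam and Icam1). The windows end at the base before the start, at chr7:128062390-128062639 for Itgam and chr7:128129300-128129525 for Itgax, both on the + strand, and capitals mark the AP-1 match.
Itgam: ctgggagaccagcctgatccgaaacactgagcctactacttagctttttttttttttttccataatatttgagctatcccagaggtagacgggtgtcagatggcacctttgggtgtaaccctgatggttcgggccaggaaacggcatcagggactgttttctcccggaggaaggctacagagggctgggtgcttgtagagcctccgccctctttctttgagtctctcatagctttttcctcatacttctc
Itgax: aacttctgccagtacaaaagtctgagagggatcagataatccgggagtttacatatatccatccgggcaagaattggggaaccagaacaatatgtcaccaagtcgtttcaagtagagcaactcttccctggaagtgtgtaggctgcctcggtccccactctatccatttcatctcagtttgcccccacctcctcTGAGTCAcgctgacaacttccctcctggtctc
Both strands were searched for the AP-1 motif TGANTCA, the RUNX motif TGNGGT, the ETS core GGAA, the T-box core GGTGTG and the NF-kB motif (GGG, any 5 bases, CC). The Itgax window held 1 AP-1 match, 32 bases before the start and overlapping no other match, and the Itgam window held 0. Among 32851 RefSeq promoter windows, 6.3% of those cut to 226 bases and 6.7% of those cut to 250 bases held an AP-1 match. Each window held 4 ETS cores, which 91.6% of windows of 226 bases and 93.4% of those of 250 bases also held. RUNX motifs (in 37.5% and 40.1% of windows of these lengths) and T-box cores (in 15.0% and 16.3%) had 0 matches in both genes. The NF-kB motif (in 42.1% and 45.8%) had 0 matches in Itgax and 2 that overlap each other in Itgam. These matches describe letters in a window and do not show binding.

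The transcript of the CD11c chain was 24.1-fold higher in CD11c+ cells (95% interval 14.2 to 41.5). Itgax stood at 356.6, 211.9, 197.9 and 203.7 CPM in CD11c+ replicates 1 to 4 and at 9.64, 4.75, 7.89 and 17.9 CPM in CD11c- replicates 1 to 4. The lowest CD11c+ library was thus far above the highest CD11c- library, and CD11c+ replicate 1 stood above the other 3 of its subset. Means were 242.5 CPM ± 76.2 and 10.1 CPM ± 5.63 (SD, n = 4 each), with a log2 fold change of 4.60 (SE 0.36, adjusted p = 0.000136, edgeR's quasi-likelihood test with Benjamini-Hochberg adjustment over all tested genes). The CD11c- libraries were not empty of Itgax, with 34 to 102 reads each, against 1113 to 1827 reads in CD11c+ libraries. In bulk libraries, fewer cells with the transcript and less transcript per cell cannot be told apart. The sort separated the subsets by the protein of this gene, so its transcript was also a check of the labels.

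Itgax was the only 1 of the 7 members to pass the threshold. Across all tested genes 5 passed (0.0496%), 3 higher and 2 lower, with Ly6c2, Id2 and Cxcr5 among the other 4. The 4 libraries of one subset lay wholly outside the range of the other for 2 of 7 members, Itgax and Itgad, and for 3.44% of all tested genes. Of the 7 log2 fold changes 5 were positive and 2 negative, with a median of 0.10, against a median of 0.01 and quartiles of -0.18 and 0.21 over all tested genes.

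**Figure D1:**
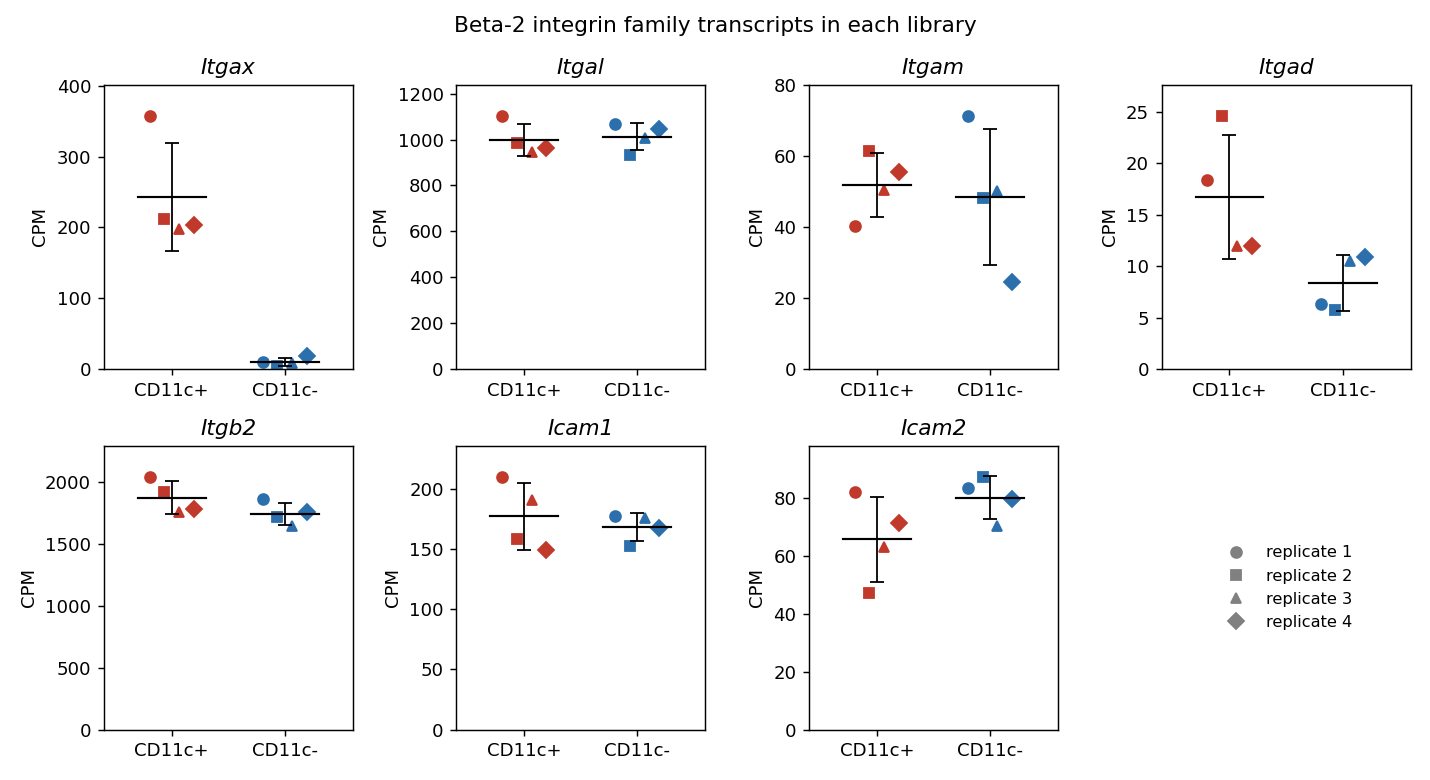
Levels of the 7 transcripts in each library, in CPM on linear axes that start at 0 and differ between panels; points are libraries (marker shape gives the replicate number), lines are subset means and bars are SDs over 4 libraries. Itgax separated the subsets by far more than its spread, Itgad separated them narrowly, and the ranges of Itgal, Itgam, Itgb2, Icam1 and Icam2 overlapped.

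The beta-2 partner did not pass the test. Itgb2 stood at 2042, 1923, 1759 and 1785 CPM in CD11c+ replicates 1 to 4 and at 1864, 1718, 1648 and 1758 CPM in CD11c- replicates 1 to 4. The ranges overlapped, although 2 CD11c+ libraries lay above every CD11c- library. Its means were 1877 CPM ± 131.3 and 1747 CPM ± 90.1, and its log2 fold change was 0.10 (SE 0.08, adjusted p = 0.991 by edgeR). The 95% interval of its fold ran from 0.953 to 1.21.

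Itgal, the alpha chain of LFA-1 and the alpha chain with the highest level in T cells here, was nearly level between the subsets. It stood at 1101, 986.1, 944.0 and 963.5 CPM in CD11c+ replicates 1 to 4 and at 1069, 934.3, 1005 and 1046 CPM in CD11c- replicates 1 to 4. The highest library was CD11c+ and the lowest CD11c-, and the ranges overlapped almost fully. The means were 998.5 CPM ± 70.1 and 1014 CPM ± 59.3, with a log2 fold change of -0.02 (SE 0.09, adjusted p = 0.999 by edgeR) and an interval of the fold from 0.864 to 1.124.

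Itgam, the Mac-1 chain whose gene lies just before Itgax, was low and varied among libraries. CD11c+ replicates 1 to 4 had 40.2, 61.4, 50.3 and 55.6 CPM, and CD11c- replicates 1 to 4 had 71.2, 48.2, 50.1 and 24.5 CPM. Both the highest and the lowest library were CD11c-, and all CD11c+ libraries lay between them. The means of 51.9 CPM ± 8.98 and 48.5 CPM ± 19.1 gave a log2 fold change of 0.10 (SE 0.28, adjusted p = 0.996 by edgeR), and its interval of the fold, 0.699 to 1.64, was wide. Its log2 fold change was -0.13 without CD11c- replicate 4 and 0.33 without CD11c- replicate 1. Of 50-base windows of the Itgam transcript, 72.4% also lie in Gm49368, a gene on the same strand in the GRCm38 annotation. Whether the annotation used for counting held that gene, and so whether Itgam reads were left uncounted, is not known.

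Itgad, the CD11d chain, was the other member whose subsets did not overlap. It stood at 18.4, 24.6, 11.9 and 12.0 CPM in CD11c+ replicates 1 to 4 and at 6.30, 5.73, 10.5 and 10.9 CPM in CD11c- replicates 1 to 4. The lowest CD11c+ library (11.9 CPM) and the highest CD11c- library (10.9 CPM) were close, and CD11c+ replicates 1 and 2 carried most of the gap. The means were 16.7 CPM ± 6.05 and 8.36 CPM ± 2.72, with a log2 fold change of 1.00 (SE 0.40). Its unadjusted p was 0.0275 and its adjusted p 0.991 by edgeR, so it did not pass the threshold. All 4 CD11c+ libraries lay above all 4 CD11c- libraries for 1.6% of tested genes. Without the 3 libraries of fewest detected genes, which include those 2, its log2 fold change was 0.40.

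Because Itgad shares a stretch with Itgax, its reads were also set against those of Itgax, as a description. Itgad reads amounted to 5.15%, 11.6%, 6.02% and 5.88% of the Itgax reads in CD11c+ replicates 1 to 4, and to 65.4%, 121%, 133% and 60.8% in CD11c- replicates 1 to 4. The mean difference in Itgad between subsets, 8.34 CPM, was 3.59% of the 232.5 CPM difference in Itgax. Reads placed at more than 1 position were not counted, and whether Itgax reads with mismatches were placed on Itgad was not tested.

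**Figure D2:**
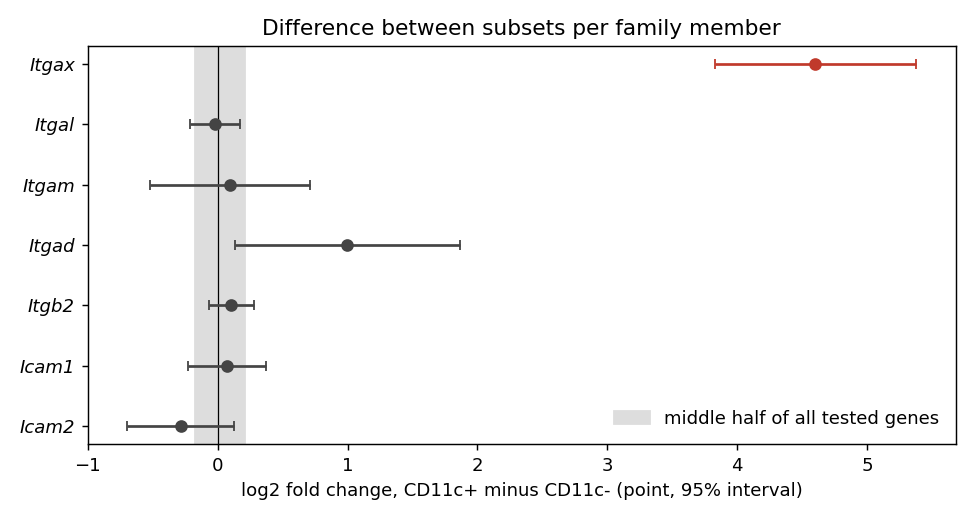
Log2 fold change of each member (CD11c+ minus CD11c-) with its 95% interval from edgeR's quasi-likelihood fit, beside the quartile range of all 10073 tested genes. Itgax stands at 4.60, Itgad's interval runs from 0.13 to 1.87, and the intervals of the other 5 members include 0.

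Because a ratio of 2 genes within 1 library does not depend on library scaling, the alpha chains were also set against the beta-2 chain library by library. One read of Itgax came with 5.73, 9.07, 8.88 and 8.76 reads of Itgb2 in CD11c+ replicates 1 to 4 and with 191.5, 356.2, 206.5 and 97.5 reads in CD11c- replicates 1 to 4. The log2 ratio of Itgax to Itgb2 was -2.99 ± 0.32 in CD11c+ and -7.59 ± 0.77 in CD11c- libraries (SD, n = 4 each), 4.59 higher in CD11c+ (exact permutation test, two-sided, p = 0.0286, adjusted p = 0.0286 over 4 ratios, the smallest p this design allows). The log2 ratio of Itgax to Itgal was 4.72 higher in CD11c+ libraries, at -2.08 ± 0.31 against -6.80 ± 0.72, with the same p by the exact permutation test. Both ratios contain Itgax, the gene of the sorted protein.

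The ratio of Itgal reads to Itgb2 reads was slightly lower in the CD11c+ libraries. Reads of Itgal per read of Itgb2 were 0.539, 0.513, 0.537 and 0.540 in CD11c+ replicates 1 to 4 and 0.574, 0.544, 0.610 and 0.595 in CD11c- replicates 1 to 4. The subsets did not overlap, though CD11c+ replicate 4 and CD11c- replicate 2 lay close. The log2 ratio was -0.91 ± 0.04 against -0.79 ± 0.07, a difference of -0.13 or 0.917-fold (exact permutation test, two-sided, p = 0.0286, adjusted p = 0.0286, the smallest p this design allows). The other ratios adjusted with it all contain Itgax, the gene of the sorted protein, and stood at the same p. The adjustment therefore left this p unchanged and adds nothing to it. Neither Itgal nor Itgb2 passed the test alone, and the ratio does not say which of the 2 moved. In size the difference was below the median absolute log2 fold change of all tested genes, 0.19. How many other gene pairs part the subsets as fully was not counted.

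The sum of all 4 alpha chains, each scaled to its coding length, was set against Itgb2 in the same way, and it includes Itgax, the gene of the sorted protein. The summed alpha chains amounted to 0.479, 0.431, 0.442 and 0.446 of Itgb2 in CD11c+ replicates 1 to 4 and to 0.399, 0.371, 0.418 and 0.402 in CD11c- replicates 1 to 4, all per kb of coding length. The log2 ratio was 0.18 higher in CD11c+ (1.13-fold), again without overlap between subsets (exact permutation test, two-sided, p = 0.0286, adjusted p = 0.0286). With transcript length in place of coding length, a choice made after the data were seen, it was 0.24 higher. This difference was that of Itgax: in CPM per kb of coding length the 4 chains together differed by 65.4 and Itgax alone by 66.3. The other 3 chains summed to 296.6 ± 18.6 in CD11c+ and 297.5 ± 18.2 in CD11c- libraries, a comparison added after the data were seen and given without a test, and their log2 ratio to Itgb2 was -1.45 ± 0.02 against -1.35 ± 0.07.

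**Figure D3:**
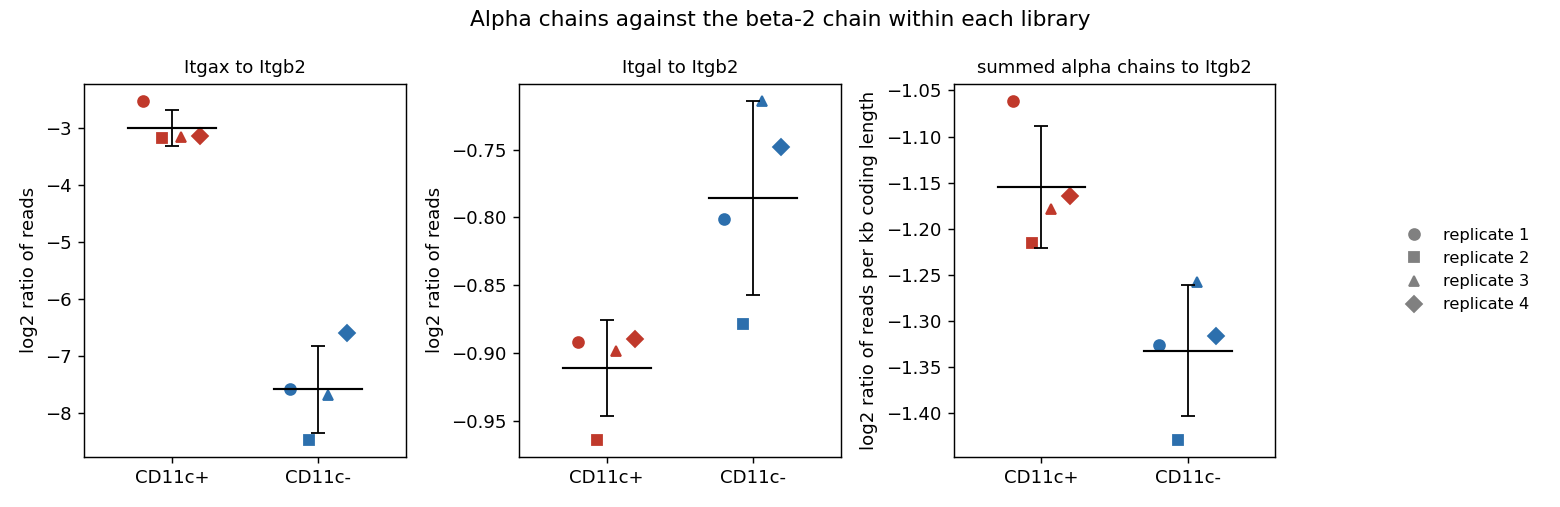
Log2 ratios within each library, Itgax to Itgb2 and Itgal to Itgb2 in reads and summed alpha chains to Itgb2 in reads per kb of coding length; points are libraries, lines are means and bars are SDs over 4 libraries, and the y axes differ between panels. Itgax to Itgb2 is 4.59 higher and summed alpha chains, Itgax included, 0.18 higher in CD11c+ libraries, and Itgal to Itgb2 is 0.13 lower.

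Seen as shares of the 4 alpha chains per kb of coding length, Itgax took 24.0%, 16.9%, 16.8% and 16.9% in CD11c+ replicates 1 to 4 and 0.854%, 0.491%, 0.754% and 1.68% in CD11c- replicates 1 to 4. Itgal was the main alpha chain in every library, with 76.0% ± 2.69 in CD11c+ and 93.7% ± 1.15 in CD11c- libraries. Itgam took 4.12% ± 0.97 and 4.60% ± 1.68, and Itgad 1.26% ± 0.44 and 0.772% ± 0.25. As shares sum to the whole, the lower share of Itgal goes with the higher share of Itgax and says nothing of the level of Itgal.

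**Figure D4:**
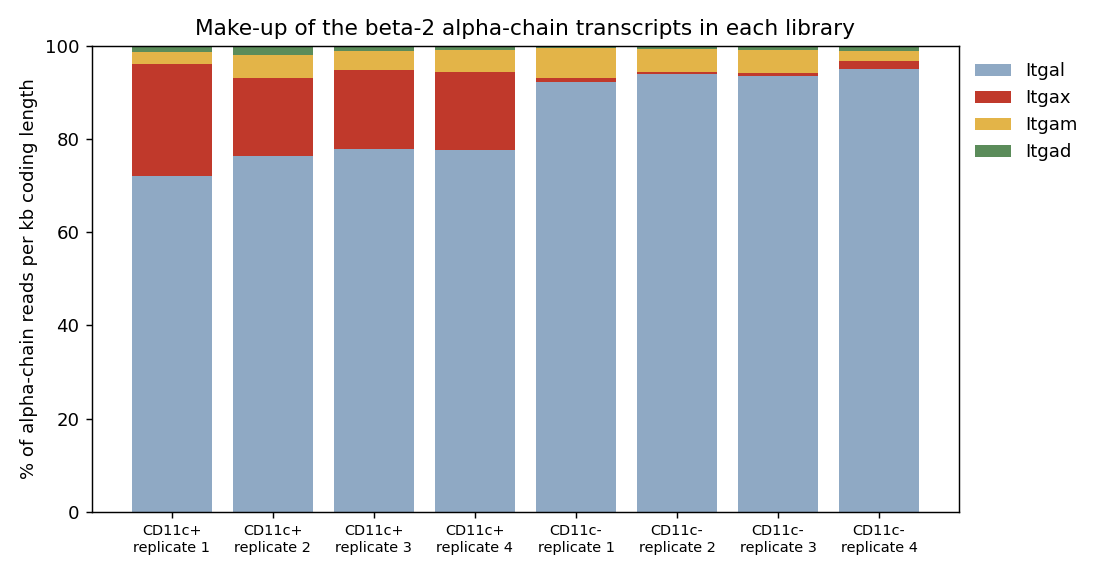
Share of the 4 alpha chains in each library, in percent of their summed CPM per kb of coding length; each bar is 1 library and each colour 1 gene. Itgax takes 16.8% to 24.0% of the bar in CD11c+ libraries and at most 1.68% in CD11c- libraries, and Itgal is the largest segment in all 8.

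On the scale of CPM per kb of coding length, which allows levels of different genes to be compared, the order in CD11c+ cells was Itgb2 (812.7 ± 56.8), Itgal (277.1 ± 19.5), Icam1 (109.8 ± 17.3), Icam2 (79.3 ± 17.7), Itgax (69.2 ± 21.7), Itgam (14.8 ± 2.57) and Itgad (4.63 ± 1.68). Ranges over libraries of Icam1, Icam2 and Itgax overlapped, so their order within CD11c+ cells is not set, and by transcript length Itgax came before Icam2. In CD11c- cells the order was Itgb2 (756.2 ± 39.0), Itgal (281.3 ± 16.5), Icam1 (104.3 ± 7.02), Icam2 (96.5 ± 8.81), Itgam (13.9 ± 5.46), Itgax (2.87 ± 1.61) and Itgad (2.32 ± 0.76). There Icam1 and Icam2 overlapped, as did Itgax and Itgad, and Itgax lay below Itgam.

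Neither ligand passed the test. Icam1, the ligand induced by inflammation on many cells, stood at 209.4, 158.4, 190.5 and 149.4 CPM in CD11c+ replicates 1 to 4 and at 177.4, 152.4, 175.2 and 167.3 CPM in CD11c- replicates 1 to 4. The CD11c- libraries lay within the range of the CD11c+ libraries, with a log2 fold change of 0.07 (SE 0.14, adjusted p = 0.992 by edgeR). Icam2, a ligand found on resting endothelium and lymphocytes, stood at 82.0, 47.1, 63.1 and 71.3 CPM in CD11c+ and at 83.6, 87.2, 70.2 and 79.7 CPM in CD11c- replicates 1 to 4. Its values were on the whole lower in CD11c+ libraries, but the ranges overlapped and the log2 fold change of -0.28 (SE 0.19, adjusted p = 0.991 by edgeR) had an interval of the fold from 0.617 to 1.09. The sign of Icam1 was not stable, at -0.02 without CD11c+ replicate 1 and -0.01 by limma voom. Of 8 other ligands, 2 had enough reads to test, 0 passed and 0 reached an unadjusted p of 0.05 by edgeR. They were Thy1, an adhesion protein of mouse T cells that Mac-1 binds (322.5 CPM ± 71.0 and 284.1 ± 35.8), and Icam5 (0.950 CPM ± 1.10 and 1.70 ± 0.57).

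A list of genes linked to the switch of these integrins from a bent to an extended form was tested, and none passed. It also held general T cell receptor and cytoskeleton genes and genes that restrain the switch, and was not the whole machinery. All 35 of 35 listed genes were tested, 0 passed by edgeR in either direction, and 1 had an unadjusted p under 0.05, against 0.0496% of all tested genes passing and 4.7% with an unadjusted p under 0.05. DESeq2 and limma voom also called 0 of them, and 0 in each of the other lists named here. Their log2 fold changes had a median of -0.04, with 12 positive and 23 negative, against a median of 0.01 over all tested genes. The most abundant were Coro1a, an actin regulator (5212 CPM ± 244.1 and 5650 ± 572.2, log2 fold change -0.12), Lck, the kinase of the T cell receptor (2060 ± 120.1 and 2178 ± 169.4, -0.08), Tln1, the talin that binds beta chain tails (1508 ± 167.8 and 1443 ± 70.4, 0.06), and Cdc42, a small GTPase (1319 ± 118.7 and 1297 ± 146.0, 0.02).

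Genes named for their role in inside-out activation, chosen after their values were seen, did not pass the test. Of the log2 fold changes of these picked genes, only that of Fermt3 lay within the quartiles of all tested genes, -0.18 and 0.21. They do not stand for the whole list, whose median was -0.04. Tln1, Rap1a, Rassf5 and Skap1 were among the listed genes within the quartiles. Fermt3, which encodes kindlin-3, the second protein on the beta-2 tail, was at 520.8 CPM ± 35.0 and 554.4 ± 38.0, with a log2 fold change of -0.09 (SE 0.10). Rap1b, a small GTPase upstream of talin, was at 365.1 CPM ± 114.0 and 296.4 ± 62.9 (0.30, SE 0.21), and its regulator Rasgrp2 at 369.5 CPM ± 38.8 and 425.3 ± 49.3 (-0.20, SE 0.12). Rhoh, a GTPase that restrains LFA-1, was the gene with an unadjusted p under 0.05. It was at 210.7 CPM ± 11.9 and 252.6 ± 8.79, without overlap between subsets, as were 3.44% of all tested genes. Its log2 fold change was -0.26 (SE 0.11, unadjusted p = 0.0296, adjusted p = 0.991 by edgeR).

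**Figure D5:**
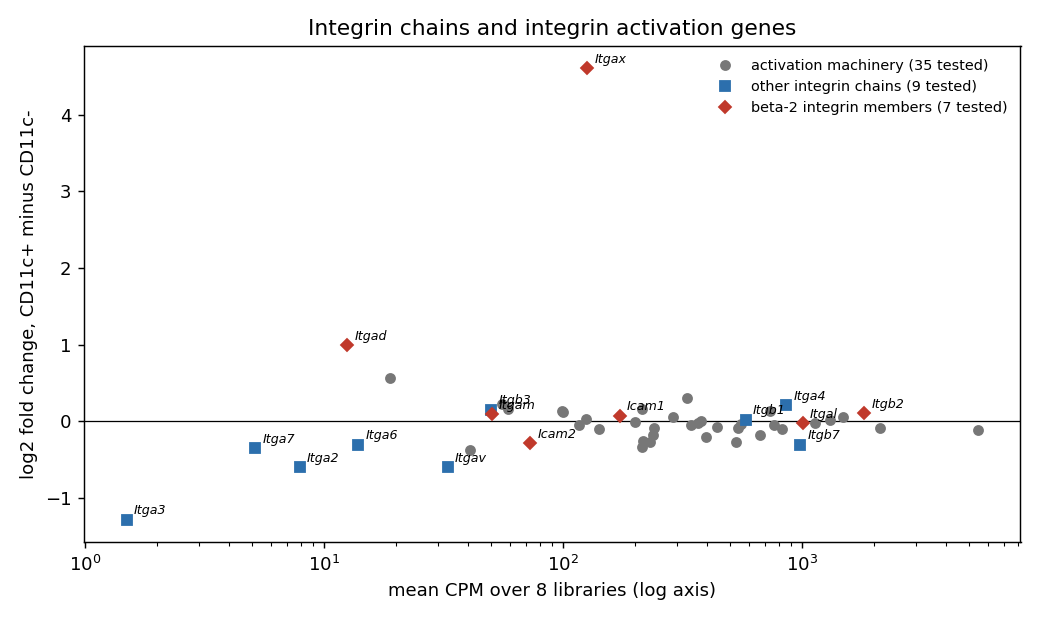
Mean level of each tested gene over all 8 libraries (CPM, log axis) against its log2 fold change (CD11c+ minus CD11c-), for the 7 members, the listed activation machinery genes and the other integrin chains. Itgax stands at 4.60 and is the only gene in the plot that passed the threshold; the other integrin chains have a median of -0.30.

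Integrin chains outside the family did not pass the test either. Of 21 listed chains 9 were tested, 0 passed by edgeR, 2 had an unadjusted p under 0.05 and 3 were at 0 in every library. The subsets did not overlap for 2 of the 9. Over all tested genes 0.0496% passed by edgeR, 4.7% had an unadjusted p under 0.05 and 3.44% did not overlap. Their median log2 fold change was -0.30, with 3 positive and 6 negative. Itgb7, the chain that pairs with alpha 4 for gut homing and also with alpha E, was at 878.5 CPM ± 52.2 and 1083 ± 111.3. It did not overlap between subsets and had an unadjusted p of 0.00773 and an adjusted p of 0.923 by edgeR (log2 fold change -0.30, SE 0.10). Its partner Itga4 was at 918.4 CPM ± 179.9 and 791.2 ± 149.9 (0.22), Itgb1 at 585.3 ± 138.4 and 575.4 ± 145.4 (0.02), and Itgb3 at 52.6 ± 18.8 and 47.3 ± 5.22 (0.15). Itga2 also did not overlap, at 6.31 CPM ± 2.13 and 9.54 ± 1.45, and was named, like Itgav at 26.2 CPM ± 2.54 and 39.6 ± 10.7 (unadjusted p = 0.0344 by edgeR), after its values were seen.

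None of the tested genes beside the Itgam, Itgax and Itgad cluster passed the test. Of the 5 genes on either side 6 of 10 were tested, 0 passed and 0 reached an unadjusted p of 0.05 by edgeR. Over all tested genes the shares were 0.0496% and 4.7%, so counts of 0 among so few genes tell little. The tested neighbours had a median log2 fold change of -0.01. Pycard, which encodes the inflammasome adaptor ASC, was at 747.2 CPM ± 97.8 and 793.3 ± 107.3 (-0.09), and Armc5 at 48.8 ± 12.3 and 51.3 ± 11.04 (-0.07). The lowest 3 of the tested genes were 9130023H24Rik, Slc5a2 and Prss36. Slc5a2 was at 5.85 CPM ± 1.27 and 3.52 ± 1.42 without overlap, as were 3.44% of all tested genes. Trim72, Cox6a2, Tgfb1i1 and Prss8 had too few reads to test. Cox6a2, which overlaps Itgad on the other strand in GRCm38, reached at most 1.42 CPM in any library.

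The genes most like Itgax over the 8 libraries, by Pearson's r of log2(CPM + 1) among 10072 genes, were Med12l (0.97), Zmiz1 (0.96), Rhbdf2 (0.95) and Serpinb9 (0.95). With each subset's mean removed, r fell to 0.69, 0.06, 0.49 and 0.57, the lowest being that of Zmiz1. Zmiz1, which encodes a transcriptional coregulator, stood at 153.2 CPM ± 2.12 and 91.9 ± 7.53, and Serpinb9, which encodes an inhibitor of granzyme B, at 645.1 CPM ± 63.3 and 453.6 ± 29.3. For Itgb2 the 4 were Nup37 (0.97), Gbp4 (0.96), Acy1 (0.93) and Wdr31 (0.93), and with subset means removed r was 0.97, 0.94, 0.91 and 0.97. The libraries share their depth and their amplification, and r is given as a description.

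Itgax, Itgam and Itgad are also transcripts of myeloid cells, so markers of such cells were read in the same libraries, although the sort had removed cells with surface MHCII. The 14 dendritic cell markers summed to 243.2, 284.1, 528.0 and 450.5 CPM in CD11c+ replicates 1 to 4 and to 207.8, 214.7, 215.4 and 331.0 CPM in CD11c- replicates 1 to 4. Of these, 5 were tested, 0 passed, 4 had an unadjusted p under 0.05 by edgeR (4.7% of all tested genes did) and the median log2 fold change was 1.38. The sum was made up largely of Cst3 (132.7 to 220.0 CPM), Cd74 (24.7 to 111.3 CPM) and the MHC class II genes H2-Ab1 (8.07 to 69.5 CPM) and H2-Aa (5.40 to 59.2 CPM). Flt3 and Cd209a were at 0 in every CD11c- library and at most 4.98 and 4.36 CPM in any CD11c+ library, Zbtb46 and Xcr1 reached at most 3.58 and 4.68 CPM, and Mgl2 was at 0 in all 8. Within the CD11c+ subset the library with the highest Itgax, replicate 1, had the lowest dendritic marker sum, and replicate 3, with the lowest Itgax, had the highest. The order differed between marker lists, and the NK cell sum, given below, was highest in replicate 1.

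The 16 counted monocyte and macrophage markers summed to 135.8, 105.3, 453.3 and 254.9 CPM in CD11c+ replicates 1 to 4 and to 156.6, 101.6, 237.5 and 183.1 CPM in CD11c- replicates 1 to 4, with 6 tested, 0 passing by edgeR and 0 with an unadjusted p under 0.05. CD11c+ replicate 3 was again the highest, with Lyz2, a lysozyme gene, at 264.4 CPM there. The Kupffer cell genes Clec4f, Timd4, Vsig4 and Marco were at 0 in every CD11c- library and at most 1.57 CPM in any CD11c+ library. Itgam was highest in CD11c- replicate 1, and Itgad in CD11c+ replicate 2, which had the lowest monocyte and macrophage sum of its subset. In CD11c+ replicate 1, which had the highest Itgax, Cd68 was at its highest (91.14 CPM) and Lyz2 at its lowest (18.35 CPM). Neutrophil markers summed to 2.27 to 288.3 CPM in CD11c+ and 7.55 to 120.9 CPM in CD11c- libraries, with CD11c+ replicate 3 the highest. NK cell markers summed to 10.5, 2.27, 8.71 and 6.85 CPM in CD11c+ replicates 1 to 4. In CD11c- replicates 1 to 4 the sums were lower, at 0.741, 1.26, 2.07 and 1.94 CPM. Of these markers 0 of 6 had enough reads to test. B cell markers summed to 9.56 to 13.5 and 6.57 to 14.8 CPM, and liver parenchyma and endothelium markers to 17.8 to 33.6 and 24.7 to 41.7 CPM. The part of such cells in the Itgax and Itgad values was not tested.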

How the data were processed

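RNA-seq of 8 libraries, 4 CD11c+ and 4 CD11c-, was analysed from deposited raw read counts per gene. Per the labels' protocols, cDNA was amplified by a modified SMART-seq2 protocol and read as 50 bp single reads. Per the submitters' processing notes, the authors used bcl2fastq, TopHat2 2.0.8b, HTSeq and genome build mm9. Neither annotation nor strand setting is given in the sources used, so overlapping genes on opposite strands cannot be told apart. Alignments at more than 1 place, 50.3% to 53.6% of all rows, were in a summary row and not in genes. The 5 summary rows were left out.

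Counts were tested in edgeR 4.0.16 (R 4.3.3; filterByExpr, TMM, glmQLFit, glmQLFTest) with Benjamini-Hochberg adjustment over 10073 genes and a threshold of 0.05. SE is the log2 fold change over the root of F. Ratios added 0.5 reads to each gene. Library pairs of a subset differed by more than sampling (lowest chi-square per degree of freedom 9.79). Sequences and overlaps came from GENCODE and RefSeq for GRCm38, not mm9. On simulated data over 10073 genes, 10.6%, 39.3% and 75.5% of genes changed 1.5-fold, 2-fold and 4-fold were recovered. The members and lists (138 of 141 list entries matched) were chosen with earlier results of these data known. Named genes were all members, up to 4 of the most abundant tested genes per list, the 4 most alike genes, the neighbours and genes that a small count calls for. Of the genes passing over all genes, 1 is not reported here. Alternatives were RLE factors, library size only, other filters, a replicate block, DESeq2 1.42.0, limma 3.58.1 (voom), edgeR's other quasi-dispersion setting, and fits without each library or without the 3 of fewest detected genes.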

Additional observations from a re-analysis of the deposited data

Results flagged for a closer look

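Among 30 sets of 4 libraries checked for 1 library standing apart (a gap to the nearest other above 0.829 of the whole range), 5 were picked out, all in CD11c+ libraries. Chance picks out about 1 in 20 such sets. Itgax stood at 356.6 CPM in CD11c+ replicate 1, against 197.9 to 211.9 in the other 3. In the same library the log2 ratio of Itgax to Itgb2 was -2.52, against -3.18 to -3.13, and that of Itgax to Itgal was -1.63, against -2.25 to -2.22. Its Itgax share of the alpha chains was 24.0%, against 16.8% to 16.9%. These 4 values rest on the same Itgax count, and the library also had the fewest detected genes (10482). Without it the log2 fold change of Itgax was 4.35. The remaining value was the log2 ratio of Itgal to Itgb2 in CD11c+ replicate 2, at -0.96 against -0.90 to -0.89.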

How the results depend on the processing

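Itgax was the 1 member called under all 17 alternatives (log2 fold change 4.31 to 5.04, adjusted p from 7.37e-45 to 0.00283), and 0 of the listed activation machinery genes were called under any of them. The count over all genes, 5, was less stable. It was 12 with no filter, 8 with at least 5 CPM in 4 libraries, 13 with the replicate block, 29 by DESeq2, 19 by limma voom, 11 with the other quasi-dispersion setting and 11 without the 3 libraries of fewest detected genes, and 1 to 5 with 1 library left out. The cause was not tested. Itgad was uncalled throughout (0.40 to 1.14, adjusted p from 0.698 to 0.9997). Itgal and Icam2 stayed negative and Itgb2 positive, and Itgam and Icam1 kept their sign in 15 of 17 each. The 4 ratios kept their direction under every alternative tried, that of the summed alpha chains resting on Itgax. Same-numbered libraries correlated at 0.08, 0.19, 0.13 and 0.19 in their deviations from subset means, the first too low to pair them. Every library correlated best with its own number, a hint from the data. The replicate block changed no call of a member (Itgax 4.66, adjusted p = 0.000833), and its exact sign-flip test of the ratios cannot go below p = 0.125. The depth limits Itgad and the CD11c- Itgax values, which rest on 34 to 141 reads.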
